A study of Mus musculus with 4 samples.

Results

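The genes described here encode enzymes that make, salvage or degrade deoxynucleotides, the building blocks of DNA. They were Rrm1, Rrm2, Rrm2b, Tyms, Dut, Tk1, Tk2, Dck and Samhd1, which are 9 of the 31704 genes on a mouse expression microarray. They were found by the gene name that the array files give each probe, a rule that uses no measured value and that yielded 11 probes. Of the 9 genes, 8 were measured on all 4 arrays, and Rrm2b was close to background. RNA came from mouse embryonic fibroblasts (MEFs), cells grown in culture from mouse embryos, of the genotypes p53+/+ (wild-type, WT) and p53-/-. Each genotype was used without and with doxorubicin, a drug that damages DNA by trapping topoisomerase II, which gave 4 conditions with 1 array each on 1 slide. The dose and time of doxorubicin for the arrays, the strain, the embryo age and the passage of the MEFs are not given in the sources used here. With 1 array per condition, differences between conditions have no replicate check, no p-value was calculated, and neither the culture nor the position on the slide can be told apart from the condition.

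DNA synthesis needs a balanced supply of the deoxynucleoside triphosphates (dNTPs). Ribonucleotide reductase makes them de novo by reducing ribonucleotides, thymidylate synthase adds the methyl group of thymine, and salvage kinases recover deoxynucleosides from outside the cell or from degraded DNA. In proliferating cells the pathway is geared to S phase, whereas resting cells keep a low supply for DNA repair and for mitochondrial DNA. The tumor suppressor p53 is stabilized after DNA damage and induces genes of cell cycle arrest, among them Cdkn1a, as well as the damage-responsive reductase subunit Rrm2b. The comparisons below ask how the RNA of each enzyme stood in MEFs with and without p53, before and after doxorubicin.

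A level is the background-subtracted signal of a probe divided by the 75th percentile of its array, so that a level of 1 is the brightness of the array's 75th percentile. Levels of different probes cannot be compared, and each gene is therefore followed across the arrays only. A change was called at 2-fold or more, and "rose" and "fell" refer to such changes. Repeat spots of the same probe on an array (253 probes) gave an SD of 0.11 for a log2 ratio of 2 arrays and 0.16 for the difference between such ratios, which does not include the spread between cultures. A pair of probes for the same gene differed by a median of 0.20 in the log2 ratio with doxorubicin in WT MEFs (3313 genes). The Trp53 probe (chromosome 11, 69404204 to 69404263 of mm9) had levels of 0.592 in untreated WT, 1.89 in treated WT, 0.235 in untreated p53-/- and 0.224 in treated p53-/- MEFs. Its position relative to the targeted sequence was not analysed here. All 10 fibroblast markers examined were well above background on every array. Of other cell types, Epcam and Cldn4 (epithelium) and Cdh5 (endothelium) were not well above background on any array, but 3 to 5 of 7 epithelial markers were, Krt8, Krt14 and Krt18 on all 4 arrays. So were 3 to 4 of 6 endothelial markers, Kdr and Pecam1 on all 4 arrays, and 11 to 13 of 14 leukocyte markers.

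The promoters of 8 of the 9 genes were matched in a RefSeq table of assembly GRCm38.p6, and each was searched over the 250 bases before the start of transcription. The motifs, searched on both strands, are ones known from cell cycle genes. The CCAAT box, letters CCAAT, was found in 2 of the 8 genes and in 33.8% of 32851 promoters. In Rrm1 it lay 91 to 87 and 45 to 41 bases before the start, and in Rrm2 50 to 46 bases before it. The element known as CHR, letters TTTGAA, was found in Dck (245 to 240 bases before the start, on the opposite strand) and Tk2 (107 to 102 bases), and in 16.0% of all promoters. The E2F words TTTCCCGC, TTTCGCGC, TTTGCCGC and TTTGGCGC were in none of the 8 windows and in 1.86% of all promoters. Only these exact words were searched, so other forms of the E2F site, or sites outside the windows, would not be found. None of these motifs overlapped another in these windows. The last 100 bases before the start are shown for the genes with the CCAAT box, for Tk1, which had the largest change, and for Samhd1, which rose in p53-/- MEFs as Rrm2 did. Sequences run 5′ to 3′ on the strand of the gene, and capitals mark CCAAT.
Rrm1, chr7:102441595-102441694, plus strand: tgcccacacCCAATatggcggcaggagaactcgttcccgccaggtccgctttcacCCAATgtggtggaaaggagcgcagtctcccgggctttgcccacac
Rrm2, chr12:24708154-24708253, plus strand: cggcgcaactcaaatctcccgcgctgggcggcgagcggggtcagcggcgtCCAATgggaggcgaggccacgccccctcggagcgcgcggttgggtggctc
Tk1, chr11:117826015-117826114, minus strand: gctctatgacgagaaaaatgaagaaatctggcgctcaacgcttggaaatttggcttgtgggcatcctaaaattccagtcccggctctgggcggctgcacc
Samhd1, chr2:157135097-157135196, minus strand: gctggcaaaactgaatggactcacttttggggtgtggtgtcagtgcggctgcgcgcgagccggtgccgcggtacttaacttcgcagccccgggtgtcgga

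The subunits of ribonucleotide reductase responded differently from one another. Rrm1 encodes the large, catalytic subunit. Its probe (chromosome 7, 109617223 to 109617283 of mm9, plus strand) had levels of 9.53 in untreated WT, 5.37 in treated WT, 11.7 in untreated p53-/- and 14.6 in treated p53-/- MEFs. The treated WT array was the lowest and the treated p53-/- array the highest. With doxorubicin, the log2 ratio of Rrm1 was -0.83 in WT MEFs (1.78-fold lower) and 0.32 in p53-/- MEFs. Neither passed 2-fold, but treated p53-/- MEFs had a 2.72-fold higher level than treated WT MEFs. In bulk RNA, fewer cells that express a gene and less RNA per cell cannot be told apart.

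Rrm2 encodes the small subunit that pairs with the large one in S phase. Its probe (chromosome 12, 25398824 to 25398883, plus strand) had levels of 10.6 in untreated WT, 8.27 in treated WT, 19.7 in untreated p53-/- and 40.7 in treated p53-/- MEFs. The WT levels lay close together, with a log2 ratio of -0.36 (1.28-fold lower with doxorubicin). Rrm2 rose 2.07-fold with doxorubicin in p53-/- MEFs (log2 ratio 1.05). Treated p53-/- MEFs held 4.92-fold more than treated WT MEFs, and untreated p53-/- MEFs 1.86-fold more than untreated WT MEFs. Compared with Rrm2, Rrm1 had the smaller response in p53-/- MEFs (0.32 against 1.05) and the larger one in WT MEFs (-0.83 against -0.36). Both promoters hold the CCAAT box shown above, and its part in these responses was not tested.

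Rrm2b encodes the small subunit, also called p53R2, that p53 is known to induce for DNA repair. Its brighter probe (chromosome 15, 37853821 to 37853880, minus strand) had signals of 52.5 in untreated WT, 110.3 in treated WT, 81.5 in untreated p53-/- and 90.5 in treated p53-/- MEFs. It was well above background in treated WT and in untreated p53-/- MEFs, and not in the other conditions. In WT MEFs its level was at least 2.22-fold higher with doxorubicin. This bound was taken against the lowest signal that was well above background on the untreated array, and against the brightest of 153 negative control spots there it fell to 1.16-fold. The level in p53-/- MEFs was at least 1.16-fold lower with doxorubicin, a bound set by the treated signal itself. The untreated p53-/- signal was below the brightest negative control of that array (250.1), so the order of the p53-/- levels is uncertain. Treated WT MEFs had a level at least 1.62-fold higher than treated p53-/- MEFs, or 1.23-fold against the brightest negative control. Without doxorubicin, the p53-/- level was at least 1.59-fold higher than the WT level. Against the brightest negative control this bound did not hold (0.83). The other Rrm2b probe (37855630 to 37855689) had signals of 11.4 to 28.3 and was not well above background on any array.

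**Figure D1:**
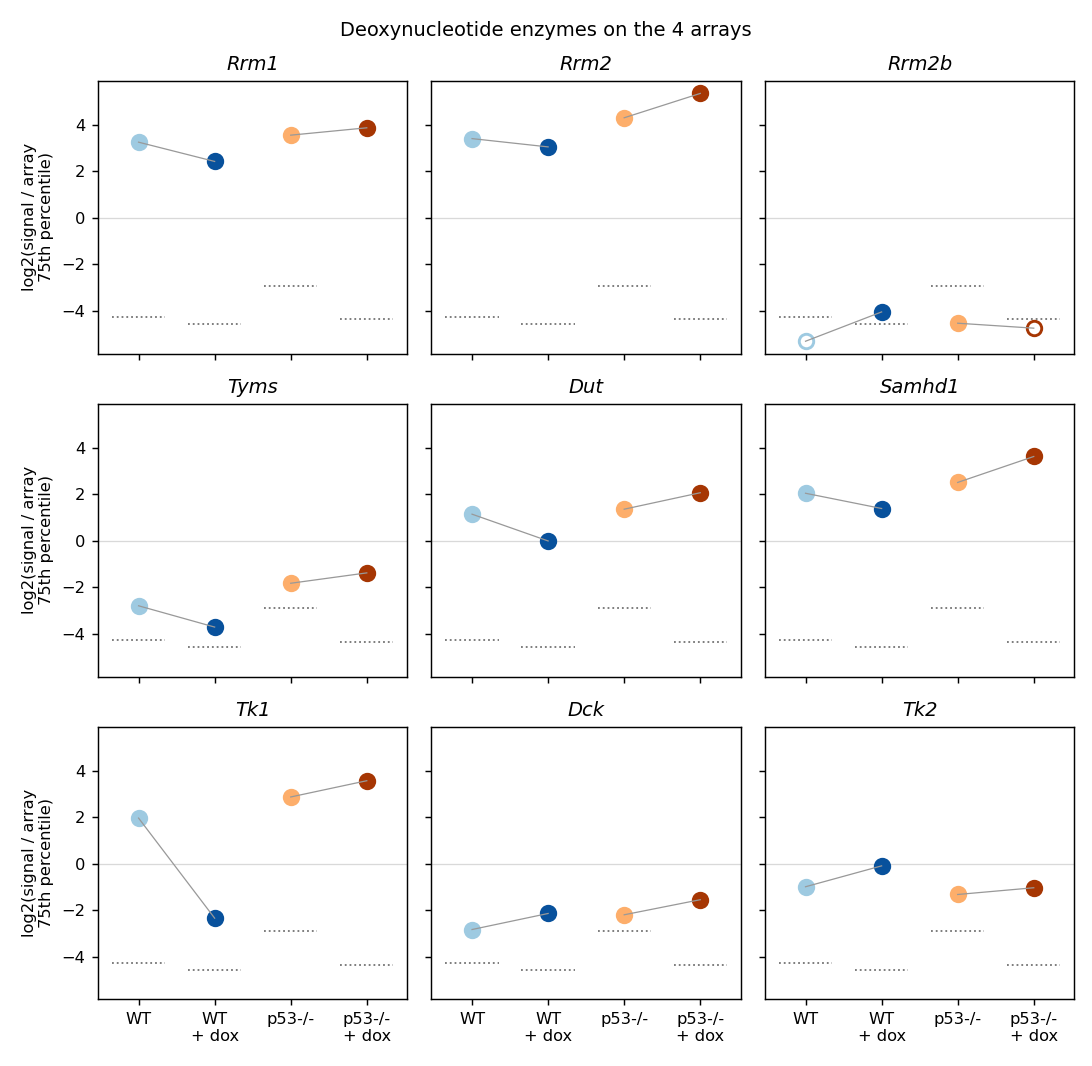
Log2 level (signal over the 75th percentile of the array, y axis) of the 9 deoxynucleotide enzymes on the 4 arrays (x axis; dox, doxorubicin), 1 point per array, without error bars because there was 1 array per condition. Open circles are signals not well above background, grey lines join the untreated and treated array of a genotype, and dotted lines mark the brightest negative control spot of each array. Tk1 in treated WT MEFs (level 0.197) stands far below its other levels, whereas Dck and Tk2 have no drop in treated WT MEFs.

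Thymidylate is made from dUMP, which Dut supplies by splitting dUTP and Tyms methylates. Dut had levels of 2.21 in untreated WT, 0.993 in treated WT, 2.56 in untreated p53-/- and 4.18 in treated p53-/- MEFs (probe on chromosome 2, 125083359 to 125083418, plus strand). The untreated levels differed by a log2 ratio of 0.21, within 2 SD of repeat spots, and the treated levels lay on opposite sides of them. In WT MEFs Dut fell 2.22-fold with doxorubicin (log2 ratio -1.15). Its log2 ratio in p53-/- MEFs was 0.71, short of 2-fold. The treated genotypes differed 4.21-fold.

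Tyms, which encodes thymidylate synthase and is the target of fluorouracil, was dim, with signals of 299 in untreated WT, 139 in treated WT, 530 in untreated p53-/- and 929 in treated p53-/- MEFs (chromosome 5, 30385578 to 30385637, minus strand). All were above the brightest negative control of their array, which was 108, 77.5, 250.1 and 120 in the same order. The corresponding levels were 0.144, 0.0764, 0.282 and 0.384. The log2 ratio with doxorubicin was -0.91 in WT MEFs (1.89-fold lower) and 0.45 in p53-/- MEFs. Untreated p53-/- MEFs had a 1.96-fold higher level than untreated WT MEFs, and after doxorubicin the gap was 5.02-fold. A probe for Tyms-ps, a pseudogene of Tyms (chromosome 10, 87430357 to 87430416), was brighter and moved in the same directions. Its levels were 1.94, 0.636, 2.73 and 4.65 in the same order, and its log2 ratios were -1.61 in WT and 0.77 in p53-/- MEFs. Near-identical transcripts may share these probes, so how much of either signal comes from Tyms is uncertain. This pseudogene was looked at after its values were seen and is not counted among the 9 genes.

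Tk1 encodes the thymidine kinase of the cytosol, an S-phase enzyme that returns thymidine to the dNTP pool, and had the largest change of the 9 genes. Its probe (chromosome 11, 117676845 to 117676904, minus strand) had levels of 3.88 in untreated WT, 0.197 in treated WT, 7.28 in untreated p53-/- and 11.8 in treated p53-/- MEFs. The treated WT array was far below the other arrays, which lay within a narrower range. Tk1 fell 19.7-fold with doxorubicin in WT MEFs, where its log2 ratio was -4.30. Without p53 it had a log2 ratio of 0.70 (1.62-fold higher). The level in untreated p53-/- MEFs was 1.87-fold that in untreated WT MEFs, and after doxorubicin p53-/- MEFs had 60.0-fold more Tk1 than WT MEFs. The treated WT signal, 358, was above the brightest negative control of its array (77.5). With normexp background correction and an offset of 50, the log2 ratio in WT MEFs was -3.95.

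The other salvage kinases did not share this pattern. Tk2 encodes the thymidine kinase of mitochondria, which is not tied to S phase. Its levels were 0.502 in untreated WT, 0.935 in treated WT, 0.399 in untreated p53-/- and 0.487 in treated p53-/- MEFs (chromosome 8, 106751194 to 106751253, minus strand). The treated WT array was here the highest, with a log2 ratio to untreated WT of 0.90 (1.86-fold). In p53-/- MEFs the log2 ratio was 0.29, and -0.01 after scaling to array medians. Treated p53-/- MEFs had a 1.92-fold lower level than treated WT MEFs. Tk2 was the only one of the 8 measured genes with a lower level in p53-/- than in WT MEFs, both without and with doxorubicin.

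Dck encodes deoxycytidine kinase, which phosphorylates deoxycytidine and purine deoxynucleosides and activates nucleoside drugs such as cytarabine. Its levels were 0.140 in untreated WT, 0.227 in treated WT, 0.218 in untreated p53-/- and 0.341 in treated p53-/- MEFs (chromosome 5, 89211802 to 89211861, plus strand). With doxorubicin, Dck was 1.61-fold higher in WT and 1.57-fold higher in p53-/- MEFs. These log2 ratios, 0.69 and 0.65, differed by 0.04, less than the SD of repeat spots. The genotype ratio was also alike without and with doxorubicin, at log2 ratios of 0.63 and 0.59 of p53-/- over WT. No change of Dck reached 2-fold.

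Samhd1 encodes an enzyme that splits dNTPs back to deoxynucleosides, restricts viruses that need dNTPs and is known to respond to interferon in several cell types. Its brighter probe (chromosome 2, 156923265 to 156923324, minus strand) had levels of 4.11 in untreated WT, 2.61 in treated WT, 5.68 in untreated p53-/- and 12.3 in treated p53-/- MEFs. The treated p53-/- level stood above the other levels. Samhd1 rose 2.17-fold with doxorubicin in p53-/- MEFs (log2 ratio 1.11), while in WT MEFs the log2 ratio was -0.66 (1.57-fold lower). A second probe, placed by the files between 156930644 and 156931997, a span of 1354 bases for 60 bases of probe, is listed under another Samhd1 transcript. Its sequence is shown because this probe gave another value than the first in WT MEFs.
Samhd1, second probe: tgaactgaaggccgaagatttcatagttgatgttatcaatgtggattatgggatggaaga
This probe had levels of 0.800 in untreated WT, 0.704 in treated WT, 1.38 in untreated p53-/- and 2.93 in treated p53-/- MEFs. The probes had a like rise in p53-/- MEFs, with a log2 ratio of 1.08 for the second, but differed in WT MEFs, where the second gave -0.18. A further probe that the files describe as Samhd1 but name by an Ensembl transcript was well above background in treated p53-/- MEFs alone. Its signal there was 98.7, below the brightest negative control of 120.

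Counted over the 8 measured genes, few changes with doxorubicin passed 2-fold in either genotype. In WT MEFs, Tk1 and Dut fell and 0 of the 8 rose. For comparison, 10.4% of the 17513 genes with a ratio in WT MEFs fell and 11% rose. In p53-/- MEFs, Rrm2 and Samhd1 rose and 0 of the 8 fell, while 9.24% of 16950 measured genes rose and 6.89% fell. Whether or not they passed 2-fold, all 8 log2 ratios were above 0 in p53-/- MEFs (0.29 to 1.11, though Tk2 had -0.01 under median scaling), and 6 of 8 were below 0 in WT MEFs. The median log2 ratio of the 8 genes was -0.74 in WT and 0.67 in p53-/- MEFs, beside 0.01 and 0.00 over all genes. The calls depend on the scaling of the arrays. With each array scaled to its median, Rrm1 (-1.10) and Tyms (-1.19) also fell in WT MEFs, Tyms as well under quantile normalization (-1.15), and Rrm2 (0.75) and Samhd1 (0.82) no longer passed 2-fold in p53-/- MEFs. Over all genes, that scaling gave a median of -0.27 in WT MEFs and of -0.30 in p53-/- MEFs. It also changed the counts in WT MEFs from 1930 higher and 1828 lower to 1319 higher and 2792 lower. For p53-/- MEFs, the change was from 1567 higher and 1168 lower to 955 higher and 2098 lower.

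**Figure D2:**
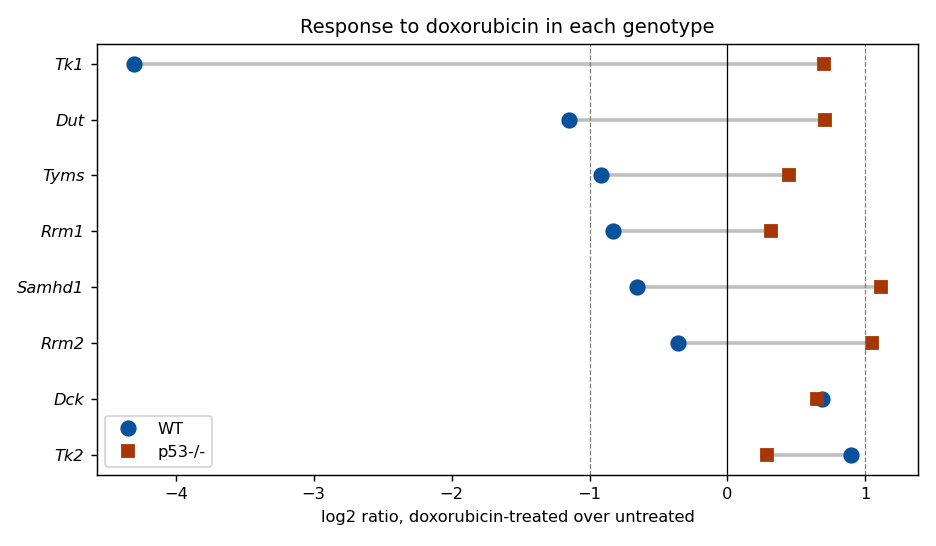
Log2 ratio of doxorubicin-treated over untreated MEFs (x axis) for the 8 genes measured on all arrays (y axis), with circles for WT and squares for p53-/- MEFs, from 1 array per condition. Dashed lines mark 2-fold and grey bars join the genotypes. All squares lie to the right of 0 (Tk2 had -0.01 under median scaling), and 6 of 8 circles lie to the left, with Tk1 at -4.30.

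Between the genotypes, most of the enzymes differed more after doxorubicin than before. Without doxorubicin, 0 of the 8 genes were at least 2-fold higher and 0 at least 2-fold lower in p53-/- than in WT MEFs, beside 2.15% and 2.61% of 17286 genes. The log2 ratios ran from -0.33 for Tk2 to 0.97 for Tyms, with a median of 0.55. With doxorubicin, 6 of the 8 genes were at least 2-fold higher in p53-/- MEFs, namely Tk1, Tyms, Rrm1, Rrm2, Dut and Samhd1. Of 17888 genes measured on both treated arrays, 11.9% were at least 2-fold higher. None of the 8 was at least 2-fold lower, beside 10.3% of all genes, though Tk2 reached -1.01 with each array scaled to its median. The median log2 ratio between the treated genotypes was 2.15 for the 8 genes and 0.00 for all genes.

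The same 6 genes shared an order of levels, which was noticed after the values were seen. From low to high, it ran from treated WT over untreated WT and untreated p53-/- to treated p53-/- MEFs. This order was found in 8.33% of the 16513 genes with ratios on all arrays. For Dut, the untreated WT and p53-/- levels were within 2 SD of repeat spots. Each step of this order kept its sign for these 6 genes under median scaling, normexp correction, quantile normalization and averaging of a gene's probes, but under median scaling the p53-/- log2 ratio was 0.02 for Rrm1, less than the SD of repeat spots, and 0.15 for Tyms. Dck and Tk2 had other orders, in which untreated p53-/- and treated WT levels of Dck (log2 step 0.06) and untreated WT and treated p53-/- levels of Tk2 (0.04) were within 1 SD. No gene of the 8 both fell in WT and rose in p53-/- MEFs at 2-fold, which 0.345% of all genes did.

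The response in WT minus the response in p53-/- MEFs, on the log2 scale, was below 0 for these 6 genes. It was -5.00 for Tk1, -1.86 for Dut, -1.77 for Samhd1, -1.40 for Rrm2, -1.36 for Tyms and -1.14 for Rrm1, and it was 0.04 for Dck and 0.61 for Tk2. Of the 16513 genes, 4 had a lower value than Tk1. The share of genes with a lower value was 3.13% for Dut, 3.48% for Samhd1, 5.67% for Rrm2, 6.01% for Tyms and 8.02% for Rrm1, compared with 51.9% for Dck and 82.5% for Tk2. The median over the 8 genes was -1.38, and that over all genes 0.01. None of these differences was tested, since each rests on 4 single arrays.

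**Figure D3:**
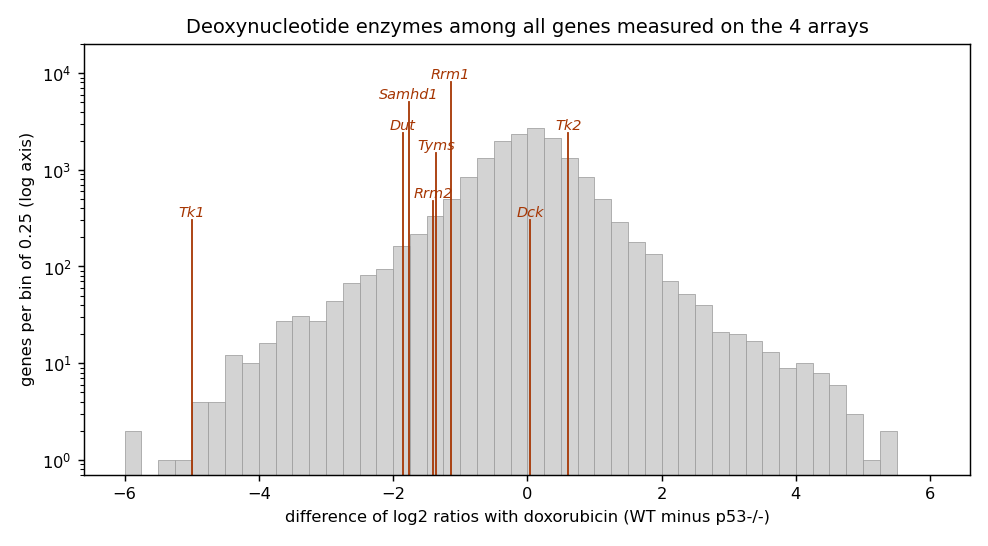
Histogram of the difference of log2 ratios with doxorubicin (WT minus p53-/-, x axis) over 16513 genes, with the number of genes per bin on a log axis (y axis), 1 array per condition. Vertical lines mark the 8 measured deoxynucleotide enzymes, and their heights carry no value. Tk1 lies in the far left tail at -5.00, 5 enzymes lie between -1.86 and -1.14, and Dck and Tk2 lie in the bulk of the genes.

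The genes whose levels ran most alike to each enzyme were sought over the 4 arrays, as the smallest distance between log2 levels after subtracting each gene's mean, among features with a gene symbol. With 4 arrays, many genes come close to any pattern. Nearest to Tk1 were Fignl1 (distance 0.09), Fbxo5 (0.29) and Shcbp1 (0.40), and their log2 ratios in WT MEFs were -4.39, -3.94 and -3.83. For Rrm2 they were Hirip3 (0.03), Tinf2 (0.05) and Ddx20 (0.10). For Rrm1 they were LOC100044824 (0.07), Tmem132e (0.07) and Mtcp1 (0.08). For Tyms they were Zfp280b (0.09), Poc1a (0.14) and Arhgap11a (0.15), and for Dut Fbxo44 (0.07), Cep295 (0.09) and Spx (0.12). For Samhd1 they were Gm15706 (0.07), Slbp (0.09) and Larp7 (0.10). For Dck they were Ifnab (0.07), Ska2l-ps (0.07) and Plaur (0.09), and for Tk2 B9d1 (0.05), Fbxo28 (0.07) and 2310039H08Rik (0.07).

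The other enzymes of nucleotide metabolism, in 6 lists of 69 genes, did not move as a block. In WT MEFs, 13 of 66 measured genes rose and 11 fell, and in p53-/- MEFs 3 of 64 rose and 5 fell. Their median difference between the responses was 0.01, beside -1.38 for the 8 deoxynucleotide enzymes and 0.01 for all genes. Among 21 kinases, phosphatases and hydrolases of nucleotides, 3 rose and 2 fell in WT MEFs (20 measured), and the median difference was 0.11. Nme4, a mitochondrial nucleoside diphosphate kinase, and Ak1, an adenylate kinase, had the largest differences in this list. Nme4 rose in WT (log2 ratio 2.04) and fell in p53-/- MEFs (-1.15). Ak1 rose in WT MEFs (1.29), had -0.98 in p53-/- MEFs, and was lower in untreated p53-/- than in untreated WT MEFs by a log2 ratio of -3.33. Dtymk, the thymidylate kinase that acts next after both Tyms and Tk1 and was chosen after its values were seen, had levels of 6.35 in untreated WT, 3.17 in treated WT, 5.80 in untreated p53-/- and 8.60 in treated p53-/- MEFs. It fell in WT MEFs (-1.0) and had 0.57 in p53-/- MEFs.

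Of 7 genes of the folate cycle, which supplies the methyl group for Tyms, 1 rose and 3 fell in WT MEFs. Their median difference was -0.61. Shmt1, a serine hydroxymethyltransferase, fell in WT MEFs (-2.16) and had 0.49 in p53-/- MEFs. Mthfd1, a folate-interconverting enzyme, rose in WT MEFs (1.11) and had -0.87 in p53-/- MEFs. Of 5 genes of de novo pyrimidine synthesis, 1 rose and 1 fell in WT MEFs, and the median difference was -0.54 over the 4 measured on all arrays. Umps, which makes UMP, had -0.92 in WT and 0.83 in p53-/- MEFs, and Ctps, a CTP synthase, had -0.25 and 0.38. Of 13 genes of de novo purine synthesis, 2 rose and 3 fell in WT MEFs and 0 passed 2-fold in p53-/- MEFs. Paics, an enzyme of inosinate synthesis, fell in WT MEFs (-1.41) and had 0.48 in p53-/- MEFs, and Adssl1, an adenylosuccinate synthase, rose in WT MEFs (2.60) and had 0.52 in p53-/- MEFs.

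The salvage and transport list was mixed. Of 14 genes measured in WT MEFs, 5 rose and 2 fell, and of 15 measured in both treated genotypes, 9 were at least 2-fold lower in p53-/- MEFs and 2 higher, where 10.3% and 11.9% of all genes were. The median difference was 0.70, with 5 of 13 differences below 0. Cda, the cytidine deaminase, rose in WT MEFs (2.92) and had 0.40 in p53-/- MEFs. Slc29a2, an equilibrative nucleoside transporter, fell in WT MEFs (-2.04) and had 0.33 in p53-/- MEFs. Of 7 genes that pass electrons to ribonucleotide reductase, 1 rose in WT MEFs, and the median difference was 0.20. It was Txnrd1, the thioredoxin reductase of the cytosol (1.02, and 0.12 in p53-/- MEFs), and Glrx, a glutaredoxin, had 0.52 in WT and 0.96 in p53-/- MEFs.

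**Figure D4:**
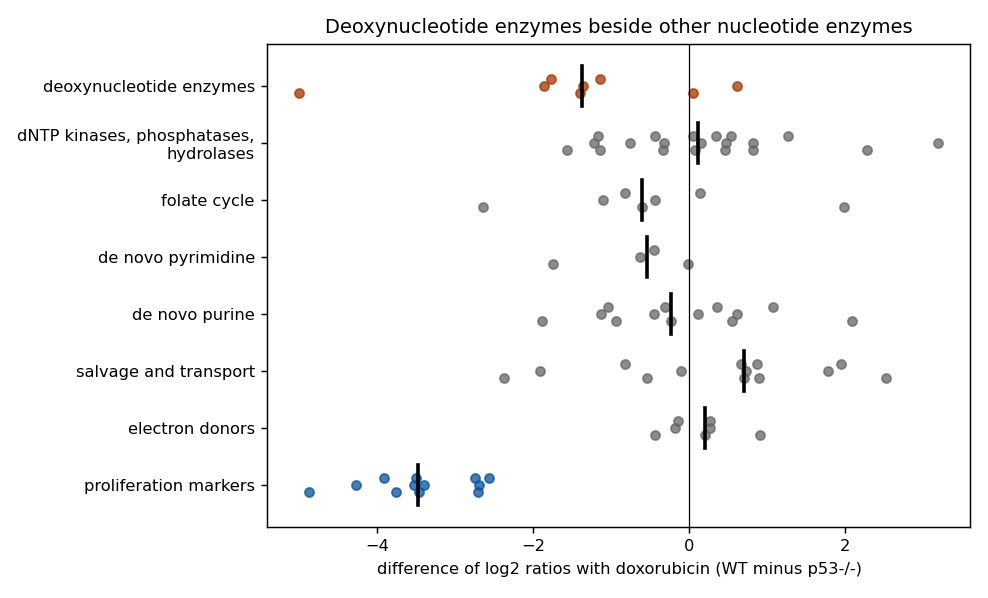
Difference of log2 ratios with doxorubicin (WT minus p53-/-, x axis) for each gene measured on all 4 arrays (points), by list (y axis), 1 array per condition, with the list's median as a black bar. The 8 deoxynucleotide enzymes have a median of -1.38, the other nucleotide lists have medians from -0.61 to 0.70, and the 12 proliferation markers have a median of -3.48.

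Markers of proliferation had lower levels in treated WT MEFs, as 6 of the 8 enzymes had, whereas Tk2 and Dck had higher ones. All 12 markers on the list fell in WT MEFs, with log2 ratios from -4.47 to -2.08, and 0 of 12 passed 2-fold in p53-/- MEFs, with a median of 0.41. Mki67, a protein of cycling cells, had -3.97 in WT and 0.30 in p53-/- MEFs, and Pcna, the sliding clamp of DNA polymerases, had -2.08 and 0.61. Without doxorubicin, 7 of the 12 were at least 2-fold higher in the p53-/- array, and the list's median log2 ratio of p53-/- over WT was 1.07. The summed level of the list was 73.3 in untreated WT, 11.0 in treated WT, 129 in untreated p53-/- and 170 in treated p53-/- MEFs, the same order as for the 6 enzymes. Of the enzymes, Tk1 was the only one whose log2 ratio in WT MEFs lay within the range of these markers. The part of the share of cycling cells in the enzymes' values was not tested.

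Interferon-response genes rose in p53-/- MEFs with doxorubicin, as Samhd1 did. Of 12 on the list, 7 were measured on both p53-/- arrays and all 7 rose, with a median log2 ratio of 5.11. Their range was 1.27 to 6.62, so the value of Samhd1, 1.11, lay below it. Of 6 measured in WT MEFs, 4 rose and 1 had a log2 ratio below 0. The range was -0.51 to 5.39 and the median 1.84, where Samhd1 had -0.66. The response in WT minus that in p53-/- MEFs was below 0 for all 5 genes with this value. Its median over these 5 genes was -1.79, beside -1.77 for Samhd1, though the responses within each genotype were unlike, as given above. Isg15, a ubiquitin-like interferon target, had 2.63 in WT and 4.09 in p53-/- MEFs, so it rose in WT MEFs, where Samhd1 had -0.66. Cmpk2, a mitochondrial nucleotide kinase that is also interferon-induced, was chosen after its values were seen. It had a log2 ratio of 4.07 in treated p53-/- over treated WT MEFs. On both untreated arrays Cmpk2 was not well above background, so it had no ratio with doxorubicin in either genotype. Leukocyte markers, listed because leukocytes express Samhd1, had summed levels of 20.2 in untreated WT, 26.8 in treated WT, 22.4 in untreated p53-/- and 18.8 in treated p53-/- MEFs. Of 11 measured leukocyte markers, 0 passed 2-fold with doxorubicin in p53-/- MEFs, and the median log2 ratio was 0.06. Ptprc, which encodes the pan-leukocyte protein CD45, had levels of 0.0315 to 0.0431, below the brightest negative control of each array. Itgam, an integrin of myeloid cells, was well above background on all arrays, with levels of 11.7 to 17.4, and made up most of each sum. Since levels of different probes cannot be compared, the sums do not measure the leukocyte content of the cultures. The part of interferon in the value of Samhd1 was not tested.

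For p53 targets, 9 of 12 listed genes rose in WT MEFs with doxorubicin and 0 fell, and their median was 1.49 (log2). Without p53, 4 of 11 measured genes rose and 1 fell. Cdkn1a, the cyclin-dependent kinase inhibitor p21, rose in both genotypes (2.08 in WT and 2.23 in p53-/- MEFs), but its level in p53-/- MEFs was lower by a log2 ratio of -4.73 without and -4.58 with doxorubicin. Mdm2, the ubiquitin ligase of p53, had 2.0 in WT and 0.47 in p53-/- MEFs. Before treatment, 9 of 11 measured targets were at least 2-fold lower in p53-/- than in WT MEFs. Rrm2b, described above as at least 2.22-fold higher with doxorubicin in WT MEFs, was the only one of the 9 enzymes with a bound or ratio past 2-fold in that direction, and its bound was 1.16-fold against the brightest negative control.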

How the data were processed

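RNA of 4 conditions was hybridized to one-color Agilent mouse arrays, 1 per condition. The authors read the spots with Feature Extraction (version 10.7.3.1, per the labels' processing notes), and the deposited intensities were background-subtracted and detrended within each array, not between arrays. The deposited flags, coded 0 or 1, mark spots well above background, saturated (0 spots) or outliers (145 to 168 per array, left out). A deposited table of intensities held the same values. No columns of the authors' own comparisons were used.

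Here, log2 intensities of repeat spots were averaged over 39429 probes, and the 75th percentile of each array (signals of 1819 to 2421) was subtracted. Each gene was represented by its brightest probe on average, and a ratio required that both arrays compared were well above background. For other probes a bound was set, against the lowest signal well above background (44.3 to 87.1) or the dim probe's own signal, whichever was higher. The number of arrays limits the precision. Names came from RefSeq (30180 probes) or the files (9249 probes). Probe positions are mm9, as in the files, and promoters are GRCm38.p6.

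The members, lists and rules were chosen with earlier results of these data known. The text names all members, the 2 genes of each pathway list with the largest absolute difference, Trp53, the 3 nearest profiles of each member, and Mki67, Pcna, Isg15, Cdkn1a and Mdm2. The other genes of the lists enter only the counts and medians, and not every gene under this rule is reported by name. Other genes named are stated as chosen after their values were seen, and cell type markers are named where they bear on a result. Alternatives were median scaling, quantile normalization, normexp (limma 3.58.1, offset 50), keeping all dim probes, requiring all 4 arrays to be well above background, averaging a gene's probes, the deposited table, and thresholds of 1.5-fold and 3-fold. Python 3.11.15, numpy 2.4.6, pandas 2.3.3, scipy 1.17.1, matplotlib 3.10.9 and R 4.3.3 were used, and the steps were tested on simulated data.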

Additional observations from a re-analysis of the deposited data

Results flagged for a closer look

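For 3 of the 8 measured genes, the level with doxorubicin was at least 1.5-fold lower in WT MEFs and at least 1.5-fold higher in p53-/- MEFs. The share of all genes that passed this rule was not calculated, so how common it is remains unknown. At 2-fold, 0 of the 8 and 0.345% of 16513 genes passed. The log2 ratio in WT minus that in p53-/- MEFs was -5.00 for Tk1, -1.86 for Dut and -1.77 for Samhd1. The other Samhd1 probe gave -1.27, with a WT log2 ratio of -0.18. These differences between genotypes were not tested, since there was 1 array per condition.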

How the results depend on the processing

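Of 280 recomputed values of single genes, 250 moved by less than the SD of repeat spots and 30 by more. The total includes the deposited table, keeping dim probes and requiring all 4 arrays, each with 40 values that could not move. The deposited values were the same, and the 8 genes were well above background on every array. Scaling to the array median moved 16 values, normexp 7, quantile normalization 4 and averaging of a gene's probes 3, all of Samhd1. The median difference of responses over the 8 genes was -1.38 and ranged from -1.54 (quantile normalization) to -1.28 (normexp). Scaling to the array median changed the counts of genes that fell in WT MEFs from 2 to 4, rose in p53-/- MEFs from 2 to 0, and were lower in treated p53-/- than WT MEFs from 0 to 1. With quantile normalization, 3 fell in WT MEFs. Without a filter on dim probes, 1 gene, Rrm2b, was higher in WT MEFs. At 1.5-fold, 2 were higher and 5 lower in WT MEFs, 5 higher in p53-/- MEFs, 4 higher in untreated p53-/- than WT MEFs and 1 lower in treated p53-/- than WT MEFs. At 3-fold, 1 fell in WT and 0 rose in p53-/- MEFs. The shares of all genes at 1.5-fold and 3-fold were not calculated, so these counts have no background to be read against. No result reversed among the calls, while the uncalled value of Tk2 in p53-/- MEFs changed sign under median scaling (0.29 to -0.01), and that of the Dck difference under quantile normalization (0.04 to -0.02). The slide was not used as a block, since there was 1. No paired analysis was possible because each condition had 1 array without a replicate number. Signal over background limits Rrm2b, whose signals were at most 110.3, and the spread between cultures is unknown.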
